A study of Mus musculus with 12 samples.

Results

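NA10, the fusion of NUP98 to HOXA10, was compared with ND13(N51S), the fusion of NUP98 to HOXD13 that carries the homeodomain mutation named in its label. The comparison was chosen by the array titles and took 6 of the 12 arrays of the series, 3 for NA10 and 3 for ND13(N51S), with all 22626 probe sets of the mouse MOE430A array that were not array controls. The arrays held RNA of GFP+, Sca-1+, Lin- bone marrow cells. Donors were (C57Bl/6Ly-Pep3b×C3H/HeJ) F1 mice older than 12 weeks that had received 5-fluorouracil at 150 mg/kg 4 days before harvest. Their marrow was prestimulated for 48 hours with interleukin-6, interleukin-3 and stem cell factor, cocultured for 2 days with irradiated GP+E86 virus producer cells, and kept for a further 24 hours before sorting. All groups carried a murine stem cell virus vector with GFP behind an internal ribosome entry site. The 3 arrays of ND13, the fusion with an intact HOXD13 homeodomain, and the 3 arrays of the GFP control, the vector without a fusion, are given beside the comparison because NA10 and ND13(N51S) differ both in the HOX partner and in the mutation. In this comparison alone the partner and the mutation cannot be told apart.

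HOX proteins bind DNA through the homeodomain, and the asparagine replaced in ND13(N51S) contacts an adenine of the site directly, so the mutant is used as a form that does not bind DNA. HOX proteins often bind together with the TALE homeodomain proteins of the PBX and MEIS families. In NUP98-HOX fusions, which arise by translocation in acute myeloid leukemia, the homeodomain is joined to the phenylalanine-glycine repeats of a nuclear pore protein, and these repeats recruit coactivators. Hoxa9 and its neighbours are active in primitive blood cells and are shut down as the cells mature.

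One array stood apart. In ND13(N51S) replicate 2 the signal at the 3' end of the Gapdh message was 48.9 times that at the 5' end, and for Actb 9.09 times. These deposited values are in conflict with the study, which reported low ratios for both genes in all samples. The other 2 ND13(N51S) arrays had Gapdh ratios of 1.93 and 2.23, and the 3 NA10 arrays 1.99, 2.71 and 2.07. Counts of calls and the changes of the main genes are therefore given with and without ND13(N51S) replicate 2. The scanner records of NA10 replicate 1 and GFP control replicate 1, the only ones read here, both gave 50 ng of RNA against the 100 ng of the labels. The record of GFP control replicate 1 named N51S and GFP- cells, in conflict with its label, which was kept. Signals were scaled by the authors to trimmed means of 500.16 to 500.19, and the background of an array, the 95th percentile of its 27 bacterial control probe sets, was 36.4 to 41.5 in NA10 and 47.8 to 51.9 in ND13(N51S). Kit, the stem cell factor receptor, gave 1242, 850 and 899 in NA10 and 946, 1300 and 709 in ND13(N51S). Cd4, one of the antigens used to exclude mature cells, lay below background on all of these arrays. Of 5 measured genes listed for this gate, 2 lay below background on all NA10 arrays and 1 on all ND13(N51S) arrays. These values therefore do not check the gate. Ly6a, which encodes Sca-1, was on the list of stem cell surface markers, but its values are not given here. The probe sets of the fused genes did not separate the groups: that of Hoxa10 gave 110, 115 and 332 in NA10 and 97.4, 170 and 83.2 in ND13(N51S), and that of Hoxd13 lay below background on all 6 arrays. Whether these probe sets match the introduced cDNA is not given in the sources used here, so they do not check the labels.

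A probe set was called when its adjusted p (limma, Benjamini-Hochberg over 22626 probe sets, replicate number as a block) was below 0.05 and its fold change at least 1.5. With all arrays 9 probe sets were called higher in NA10 (0.0398% of those tested) and 1 lower (0.00442%). Without ND13(N51S) replicate 2 the counts were 33 higher (0.146%) and 10 lower (0.0442%), and these 43 held all 10 of the first set. Leaving out ND13(N51S) replicate 3 in its place gave 106 higher and 15 lower, which also held all 10, whereas leaving out NA10 replicate 1, 2 or 3 gave 1 and 0, 2 and 2, or 0 and 0 (the last with 756 higher and 1140 lower at the unadjusted thresholds). Without the replicate block 1 was called higher and 1 lower. At an unadjusted p below 0.05 and a 1.5-fold change, 870 probe sets were higher in NA10 (3.85%) and 1257 lower (5.56%), a share of 40.9% higher that became 57.4% with median centring and 53.0% with quantile normalization. On 974 probe sets all 3 NA10 arrays lay above all 3 ND13(N51S) arrays (4.30%), and on 2126 all 3 lay below (9.40%). With 3 arrays against 3 an exact two-sided permutation test of a single probe set cannot go below p = 0.1. For 3 numbered pairs the limit of such a test is 0.25. The adjusted p-values therefore rest on the spread pooled over all 12 arrays and all probe sets.

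**Figure D1:**
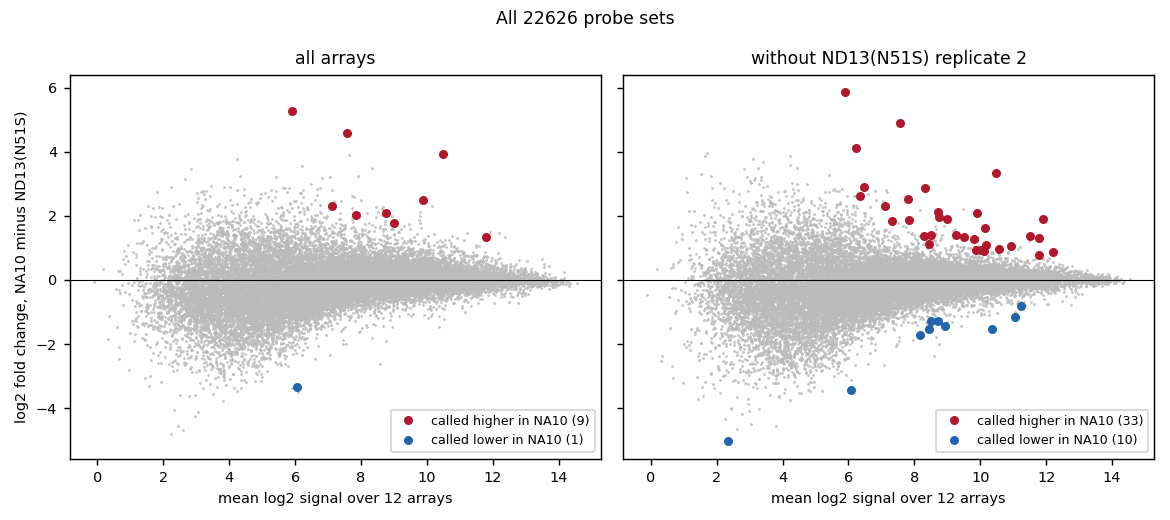
Log2 fold change of NA10 minus ND13(N51S) for each of 22626 probe sets (vertical axis) against its mean log2 signal over 12 arrays (horizontal axis), with all arrays (left) and without ND13(N51S) replicate 2 (right). Coloured points are called probe sets, 9 higher and 1 lower on the left, 33 higher and 10 lower on the right.

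Among the 10 called probe sets, 2 were high in NA10 and in ND13 and low in ND13(N51S) and in the GFP control. Ddx4, a germ cell RNA helicase of the DEAD-box family, gave signals of 708, 553 and 578 in NA10 and 4.30, 42.2 and 21.2 in ND13(N51S). All 3 ND13(N51S) arrays lay below their background, so that Ddx4 was at least 12.2-fold higher in NA10 (log2 fold change of the measured signals 5.28 ± 0.69, SE, adjusted p = 0.0245, limma). ND13 had 114, 121 and 90.8, which did not overlap NA10 or ND13(N51S), and the GFP control had 3.96, 20.1 and 21.9. Probe set 1416325_at, for which the annotation used here gives no gene, had 1574, 975 and 2176 in NA10 and 66.6, 56.2 and 62.3 in ND13(N51S), a log2 fold change of 4.60 ± 0.45 (adjusted p = 0.00725, limma). It had 1249, 642 and 628 in ND13 and 52.5, 6.87 and 14.3 in the GFP control. Without ND13(N51S) replicate 2 the changes of Ddx4 and 1416325_at were 5.87 and 4.91 (adjusted p = 0.00953 and 0.00266, limma).

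A further 2 called probe sets set NA10 apart from the other 3 groups. Probe set 1417184_s_at, which several adult beta-globin genes share (Hbb-b1, Hbb-b2, Hbb-bs, Hbb-bt), gave 5633, 7919 and 9842 in NA10 and 2062, 3470 and 3879 in ND13(N51S), a mean of 7798 ± 2107 against 3137 ± 953 (SD, n = 3 each). In each numbered pair the NA10 array was higher, by 1.45, 1.19 and 1.34 on the log2 scale (fitted change 1.33 ± 0.14, SE, adjusted p = 0.0115, limma). ND13 had 1808, 3468 and 3606 and the GFP control 1318, 3244 and 3351, in no numbered experiment above the mutant. Mark2, a kinase of microtubule-associated proteins and cell polarity, was the probe set called lower. Its probe set 1435889_at had 13.5, 19.4 and 12.8 in NA10, below background on all 3 arrays, and 141, 141 and 174 in ND13(N51S), at least 3.93-fold lower in NA10 (log2 fold change of the measured signals -3.34 ± 0.38, SE, adjusted p = 0.0132, limma). ND13 had 106, 107 and 148 and the GFP control 63.9, 77.4 and 83.7. The other 2 Mark2 probe sets were not called, with log2 fold changes of 0.59 and -0.55 (adjusted p = 0.721 and 0.374, limma). The beta-globin change was 1.30 without ND13(N51S) replicate 2 and that of Mark2 on 1435889_at -3.44 (adjusted p = 0.00945 and 0.0198, limma).

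The remaining 6 called probe sets, of 5 genes, had the lowest mean in ND13(N51S), with the means of ND13 and the GFP control nearer to NA10, for Sirt2 by little. Malat1, a nuclear long noncoding RNA, gave 2386, 3446 and 4051 in NA10 and 238, 74.0 and 530 in ND13(N51S) (probe set 1418189_s_at, log2 fold change 3.93 ± 0.51, SE, adjusted p = 0.037, limma), against 1670 to 4282 in ND13 and 1504 to 2933 in the GFP control. Ddx6, a helicase of messenger RNA storage and decay, had 1904, 1385 and 1955 in NA10 and 266, 141 and 753 in ND13(N51S). Sirt2, a NAD-dependent deacetylase, had 280, 176 and 419 in NA10 and 90.8, 38.3 and 49.7 in ND13(N51S). The GFP control had 190, 77.7 and 131 for Sirt2, 1.14 below NA10 and 1.16 above ND13(N51S) on the log2 scale, and its replicate 2 lay below ND13(N51S) replicate 1. Ddx6 and Sirt2 were called (log2 fold changes 2.50 and 2.30, adjusted p = 0.0245 and 0.0282, limma), and NA10 did not overlap ND13(N51S) for either. Atrx, a chromatin remodeller that deposits histone variant H3.3, had 825, 417 and 817 in NA10 and 172, 77.4 and 268 in ND13(N51S) (adjusted p = 0.0282, limma). Rbm5, an RNA-binding splicing regulator, was called by 2 probe sets, with 840, 574 and 765 in NA10 and 240, 177 and 213 in ND13(N51S) on the brighter.

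Other probe sets of these genes showed the difference only in part. A second Malat1 probe set, 1418188_a_at, had a log2 fold change of 3.49 (adjusted p = 0.0666, limma), and 3 more had -1.24, 1.66 and 0.75. Rbm5 was also measured at 3120, 3803 and 3738 in NA10 and 4402, 1999 and 3258 in ND13(N51S) by probe set 1452186_at, with a log2 fold change of 0.21 and overlapping groups. Ddx6 had 1055, 1551 and 1139 in NA10 and 1097, 1217 and 993 in ND13(N51S) on probe set 1434697_at. Of the 4 other Atrx probe sets, 1420946_at had a log2 fold change of 2.02 (adjusted p = 0.0837, limma) and the other 3 ranged between -0.50 and 0.28. For all 6 called probe sets the lowest of all 12 arrays was ND13(N51S) replicate 2, the array with the high 3' to 5' ratios, and all 6 were also called without it (Malat1 3.33, Ddx6 2.11, Sirt2 2.32 and Atrx 1.96 on the log2 scale, adjusted p = 0.00953, 0.0132, 0.0339 and 0.0363, limma). The part of RNA quality in these values was not tested.

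**Figure D2:**
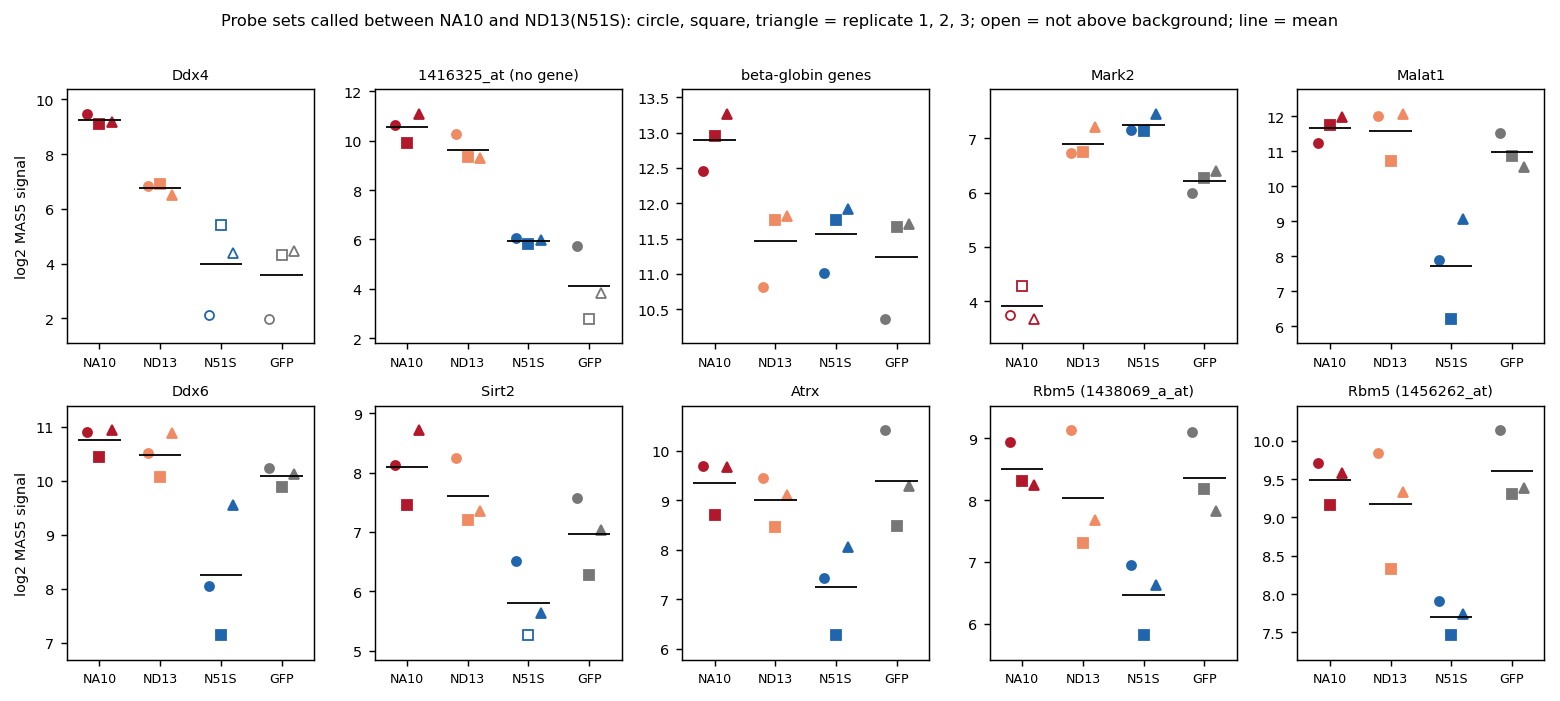
Log2 MAS5 signal (vertical axis) of the 10 called probe sets in NA10, ND13, ND13(N51S) and the GFP control. Circles, squares and triangles are replicates 1, 2 and 3, open symbols lie at or below the background of their array, and lines are group means. Ddx4 and 1416325_at are high in both NA10 and ND13, beta-globin and Mark2 set NA10 apart, and Malat1 and the lower row are lowest on average in ND13(N51S), with the GFP control about midway for Sirt2.

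Where the ND13 and GFP control means lay was counted for all called probe sets, each set to the nearer side of the midpoint between the NA10 and ND13(N51S) means. The means were of log2 signal over all arrays and kept ND13(N51S) replicate 2, also for the calls made without it. Without that array a probe set can change sides. Of the 33 called higher without ND13(N51S) replicate 2, 14 had ND13 on the NA10 side and the GFP control on the mutant side, 15 had both on the NA10 side, 4 had both on the mutant side and 0 had ND13 alone on the mutant side. Over all 22626 probe sets these shares were 21.0%, 39.9%, 20.7% and 18.4%, against 42.4%, 45.5%, 12.1% and 0.0% among the 33. Of the 10 called lower, 4 had ND13 on the mutant side and the GFP control on the NA10 side, 3 set NA10 apart, 2 set ND13(N51S) apart and 1 was shared by NA10 and ND13. NA10 and ND13(N51S) values enter both the choice of the probe sets and the midpoint, so these counts are a description.

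The promoters of Hoxa5, Hoxa7 and Hoxa9 are shown because these 3 genes of the HoxA cluster passed the unadjusted thresholds upward in NA10, although with all arrays none was called, and because HOX proteins of the class of HOXA10 and HOXD13 prefer sites with the letters TTTA followed by T or C. Each sequence spans 250 bases before to 50 after a RefSeq start site (GRCm38.p6) on the minus strand, read 5′ to 3′, with these letters and their reverse complements in capitals. The places are chr6:52204538-52204837 for Hoxa5, chr6:52218524-52218823 for Hoxa7 and chr6:52227321-52227620 for Hoxa9.
Hoxa5: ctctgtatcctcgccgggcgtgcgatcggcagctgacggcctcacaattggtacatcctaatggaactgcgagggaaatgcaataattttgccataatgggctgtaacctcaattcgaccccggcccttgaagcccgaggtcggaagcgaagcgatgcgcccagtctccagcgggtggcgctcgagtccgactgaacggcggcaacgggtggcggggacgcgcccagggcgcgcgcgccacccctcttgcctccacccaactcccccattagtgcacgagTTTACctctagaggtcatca
Hoxa7: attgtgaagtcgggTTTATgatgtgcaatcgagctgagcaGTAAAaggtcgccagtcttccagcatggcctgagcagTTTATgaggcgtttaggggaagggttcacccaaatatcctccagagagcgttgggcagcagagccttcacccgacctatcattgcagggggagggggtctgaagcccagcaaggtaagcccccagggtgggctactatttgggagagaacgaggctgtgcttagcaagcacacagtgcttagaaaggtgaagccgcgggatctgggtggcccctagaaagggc
Hoxa9: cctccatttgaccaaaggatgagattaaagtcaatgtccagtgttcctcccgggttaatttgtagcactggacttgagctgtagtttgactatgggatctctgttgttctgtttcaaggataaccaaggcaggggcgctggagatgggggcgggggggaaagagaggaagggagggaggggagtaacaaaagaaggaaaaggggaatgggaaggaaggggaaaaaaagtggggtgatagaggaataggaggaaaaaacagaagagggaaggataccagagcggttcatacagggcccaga
The Hoxa5 window held 1 match, that of Hoxa7 held 3 and that of Hoxa9 held 0, where 54.7% of all 32851 promoters of this length held at least 1 on either strand. The same letters were searched in called genes with ND13 on the NA10 side and the GFP control on the mutant side. The windows of Ddx4, Calcrl, St8sia4, Alg14, Tspan13 and Basp1 held 0. That of Plscr1 held 1, and Prxl2a had matches, 5 of them, in a single window. The longer letters TGATTTAT and TGATTTAC, which join a PBX half-site to a HOX half-site and contain the shorter ones, were searched on both strands in the 30 promoters found for 24 of the genes called with or without ND13(N51S) replicate 2 or named here from the HoxA cluster, and in none of them was there a match, where 1.53% of all promoters held one. The shorter letters were chosen after that search. No match says only that these letters are not in the window.

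Hoxa9, a HOX gene overexpressed in many acute myeloid leukemias, had 6184, 6350 and 7127 in NA10 and 3534, 4960 and 3785 in ND13(N51S), on probe set 1455626_at. The groups did not overlap, and the change was 0.69 ± 0.13 with all arrays (SE, adjusted p = 0.11, limma) and 0.87 without ND13(N51S) replicate 2 (adjusted p = 0.00862, limma), a call only in the second. ND13 had 4965, 4920 and 5563 and the GFP control 3800, 3653 and 3928. The second Hoxa9 probe set, 1421579_at, had a change of 0.29 (adjusted p = 0.596, limma). Hoxa7 had 205, 268 and 179 in NA10 and 61.9, 10.2 and 40.9 in ND13(N51S), of which the last 2 were below background. Hoxa5 had 691, 582 and 612 in NA10 and 325, 176 and 57.4 in ND13(N51S), without overlap. Neither Hoxa7 nor Hoxa5 passed the adjusted test (adjusted p = 0.148 and 0.169 with all arrays and 0.0678 and 0.148 without ND13(N51S) replicate 2, limma), and both passed the unadjusted thresholds. These 3 were the only members of the 9 measured HoxA genes past those thresholds, and the median of the list was 0.69, or 0.87 without ND13(N51S) replicate 2, beside -0.09 over all 12393 genes. It was 0.24 with signals raised to background and 0.45 with log2(signal + 32), and 0.09, 0.36 and 1.23 in numbered pairs 1, 2 and 3. With 1 probe set for each gene, 372 of the 12393 genes were higher and 742 lower at the unadjusted thresholds, with 3 called higher and 0 lower. Without ND13(N51S) replicate 2, 310 were higher and 720 lower, with 15 called higher and 6 lower. The counts of lists below are to be read against these.

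The HoxB cluster had 3 of 9 genes higher at the unadjusted thresholds, Hoxb4, Hoxb3 and Hoxb5. Hoxb4, known for expanding stem cells when overexpressed, had 335, 252 and 201 in NA10 and 136, 132 and 114 in ND13(N51S) (log2 fold change 1.02, adjusted p = 0.174, limma). ND13 lay at 108 to 208 and the GFP control at 73.2 to 132. The same 3 genes were higher without ND13(N51S) replicate 2, and Hoxb9 was lower. The median of the list changed sign when NA10 replicate 1, NA10 replicate 3 or ND13(N51S) replicate 3 was left out and with signals raised to background. The 13 measured HoxC and HoxD genes had a median of -0.92 (-0.37 with signals raised to background and -0.41 with log2(signal + 32)), with 0 higher and 4 lower, and 9 of the 13 lay below background on all NA10 arrays. The 4 were dim: Hoxd11 lay below background on all NA10 arrays and on ND13(N51S) replicate 1, and Hoxd10 on all 6 arrays.

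Of 10 TALE genes 1 was higher and 1 lower at the unadjusted thresholds. Pbx3, a DNA-binding partner of HOX proteins, had 621, 408 and 470 in NA10 and 190, 200 and 217 in ND13(N51S). Its change was 1.28 ± 0.20 with all arrays (SE, adjusted p = 0.0666, limma) and 1.37 without ND13(N51S) replicate 2 (adjusted p = 0.0363, limma). ND13 lay at 365 to 552, overlapping NA10, and the GFP control at 217 to 224, close to the mutant. Tgif1, a TALE repressor, had 179, 260 and 228 in NA10 and 379, 433 and 437 in ND13(N51S) (log2 fold change -0.92 with all arrays and -0.95 without replicate 2, adjusted p = 0.169 and 0.148, limma). Meis1, the partner that speeds leukemia caused by Hoxa9, had 1208, 1000 and 995 in NA10 and 1224, 1724 and 1019 in ND13(N51S), with overlapping groups and a log2 fold change of -0.28 (adjusted p = 0.55, limma).

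**Figure D3:**
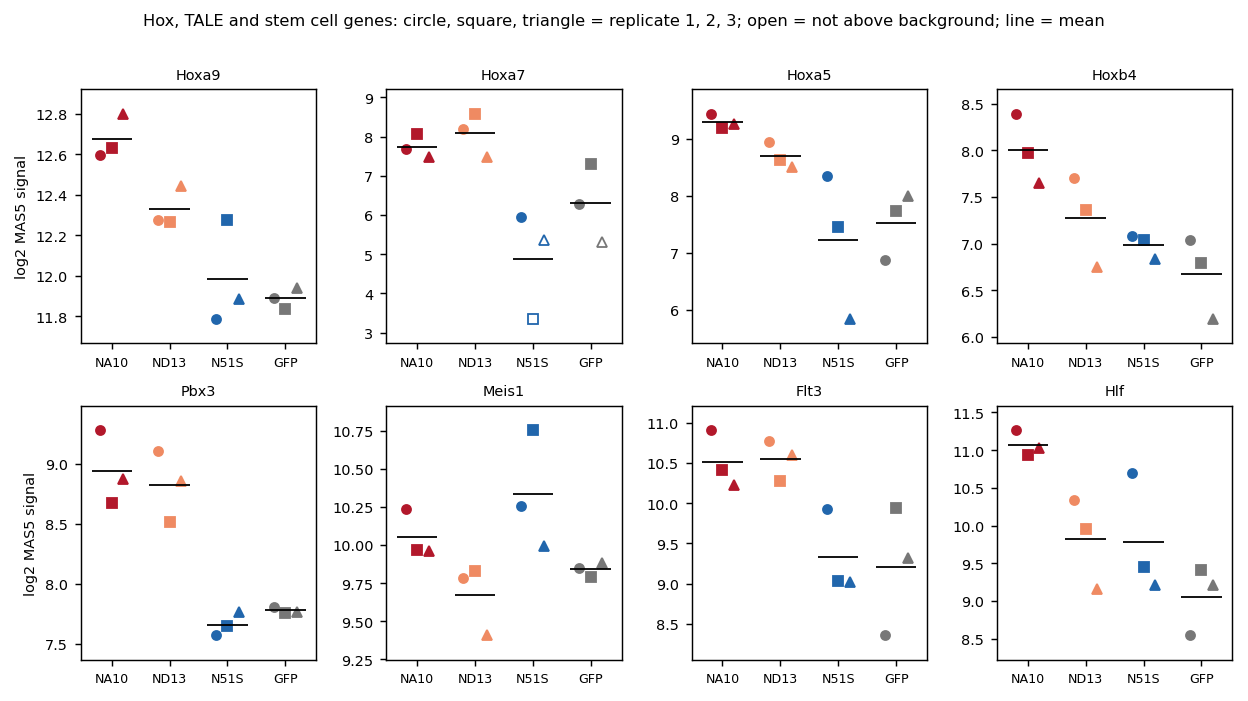
Log2 MAS5 signal (vertical axis) of 8 Hox, TALE and stem cell genes in NA10, ND13, ND13(N51S) and the GFP control, with symbols as for the called probe sets. NA10 lies above ND13(N51S) on all arrays for Hoxa9, Hoxa7, Hoxa5, Hoxb4, Pbx3, Flt3 and Hlf, and the groups overlap for Meis1.

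Stem cell genes passed the unadjusted thresholds in both directions. Flt3, the receptor tyrosine kinase often mutated in myeloid leukemia, had 1917, 1363 and 1197 in NA10 and 972, 524 and 521 in ND13(N51S), and Hlf, a transcription factor of stem cells, had 2456, 1951 and 2082 in NA10 and 1656, 700 and 595 in ND13(N51S). Both were past the unadjusted thresholds only (log2 fold changes 1.19 and 1.28, adjusted p = 0.26 and 0.204, limma, and 0.98 and 1.06 without ND13(N51S) replicate 2). ND13 overlapped NA10 for Flt3 (1235 to 1743) and ND13(N51S) for Hlf (571 to 1297). Procr, the protein C receptor found on stem cells, had 382, 394 and 378 in NA10 and 219, 231 and 200 in ND13(N51S) (log2 fold change 0.83, adjusted p = 0.203, limma). Among 20 stem cell surface markers 3 were higher (Procr, Cd93, Flt3) and 2 lower (Il7r, Cd44), with a median of 0.02 that changed sign without ND13(N51S) replicate 1 or 3. Only Cd93 of these markers was called, and only without ND13(N51S) replicate 2 (log2 fold change 0.94, adjusted p = 0.0432, limma). With all arrays its change was 0.70 with overlapping groups (adjusted p = 0.23, limma). On their brightest probe sets Mef2c, Prnp and the Notch ligand Jag2 had changes of 0.22, 0.24 and -0.41, none past both unadjusted thresholds. Other probe sets were past them, 2 of Mef2c (1421027_a_at at 0.66 and 1421028_a_at at 1.07) and 1 of Jag2 (1426431_at at 1.60), and none of these was called (adjusted p = 0.276, 0.352 and 0.219, limma).

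Of the genes that the study listed as raised by both fusions 68 were measured, with 29 higher and 0 lower at the unadjusted thresholds and a median of 0.59 (0.50 without ND13(N51S) replicate 2). The study chose this list on the same samples, so it is not independent evidence of a direction. Without ND13(N51S) replicate 2, 6 of the 68 were called, all higher. Besides Ddx4, Malat1, Pbx3 and Hoxa9 these were Calcrl and St8sia4. Calcrl, part of the receptor for adrenomedullin and CGRP, had 1156, 1127 and 533 in NA10 and 382, 780 and 218 in ND13(N51S), where the high value is that of replicate 2. St8sia4, a polysialyltransferase, had 4008, 4118 and 5247 in NA10 and 2268, 3504 and 2961 in ND13(N51S), and 3880 to 4301 in ND13. The second probe sets of Calcrl and St8sia4 had changes of 0.46 and 0.06 with overlapping groups.

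Further probe sets called only without ND13(N51S) replicate 2 included 1 of Clu, Car2, Dtx3, Tspan13 and Basp1 each and 2 of Laptm4b, of which the last 3 genes, like Calcrl and St8sia4, were named after their values were seen. In Clu, Dtx3, Tspan13, Basp1 and Laptm4b the replicate left out lay nearer to NA10 than the other ND13(N51S) arrays did. Clu, a secreted chaperone, had 383, 283 and 1074 in NA10 and 14.7, 89.9 and 53.2 in ND13(N51S), against 52.9 to 58.2 in ND13 (log2 fold change 3.57 with all arrays and 4.13 without replicate 2, adjusted p = 0.093 and 0.0417, limma). The 3 other Clu probe sets were not called and had changes of 2.79, 1.11 and 0.81 with all arrays, and NA10 overlapped ND13(N51S) on the last 2. On 1418626_a_at, the lowest of them, the signals were 99.1, 99.0 and 412 in NA10 and 94.8, 65.9 and 120 in ND13(N51S) (adjusted p = 0.521, limma). Car2, carbonic anhydrase of red cells and progenitors, had 7665, 4303 and 9229 in NA10 and 2595, 2455 and 2134 in ND13(N51S), and the GFP control spread from 1355 to 4609. Laptm4b, a lysosomal membrane protein, had 4253, 5170 and 4696 in NA10 and 1407, 3948 and 1875 in ND13(N51S). Basp1, a membrane-bound signaling protein, had 1767, 1445 and 1564 in NA10 and 912, 2029 and 633 in ND13(N51S), so that the mutant replicate with the high 3' to 5' ratio was the highest of the 6. In the GFP control Basp1 was 626 to 799.

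Clec4n, Plbd1 and Ctsh were among the 10 genes with the smallest p of those lower in NA10, and none of them was called with all arrays. Clec4n, the fungal-pattern receptor dectin-2 of macrophages, had 949, 1219 and 595 in NA10 and 3791, 2432 and 1536 in ND13(N51S), with a log2 fold change of -1.45 ± 0.23 (SE, adjusted p = 0.0666, limma) and a call without ND13(N51S) replicate 2 (-1.53, adjusted p = 0.0412, limma). ND13, at 1439 to 2089, lay between by its mean and overlapped ND13(N51S). The GFP control, at 470 to 1331, overlapped NA10. Plbd1, a phospholipase of myeloid granules, had 278, 295 and 172 in NA10 and 928, 567 and 492 in ND13(N51S), and was called without replicate 2 (log2 fold change -1.54, adjusted p = 0.044, limma). Ctsh, a lysosomal cysteine protease, had 299, 238 and 200 in NA10 and 864, 592 and 492 in ND13(N51S), with 400 to 678 in ND13 and 123 to 225 in the GFP control, and was called in neither fit (log2 fold changes -1.38 with all arrays and -1.46 without replicate 2, adjusted p = 0.0837 and 0.0527, limma). The rule that named these 3 genes required all ND13(N51S) arrays to lie above all NA10 arrays. ND13 was also above NA10 in every numbered experiment for them. The same held for Mark2, Acaa1a, Adgrg3, Arap2, Prrc1 and Dppa3, named by the same rule, but not for Gpaa1, so it is not particular to these 3. Lyz2, macrophage lysozyme, had 1706, 1566 and 1407 in NA10 and 5572, 1497 and 2506 in ND13(N51S), and was called only without replicate 2, the low one of the 3 (log2 fold change -1.17, adjusted p = 0.0432, limma).

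Of 25 macrophage and dendritic cell genes 0 were higher and 8 lower at the unadjusted thresholds, with a median of -0.39. They were Csf1r, Msr1, Ccl6, Fcgr2b, Fcgr3, Mrc1, Irf8 and Itgax, and without ND13(N51S) replicate 2 there were 1 higher and 11 lower. Csf1r, the receptor for M-CSF, had 2647, 2094 and 1701 in NA10 and 5826, 3177 and 2777 in ND13(N51S) (log2 fold change -0.82 with all arrays and -0.78 without replicate 2, adjusted p = 0.177 and 0.209, limma). Msr1, a scavenger receptor, had 137, 145 and 138 in NA10 and 382, 189 and 341 in ND13(N51S) (log2 fold change -1.05 and -1.19, adjusted p = 0.182 and 0.153, limma). The summed signal of the 25 genes was 15374 to 17527 in NA10 and 19403 to 28193 in ND13(N51S), without overlap, 21454 to 25668 in ND13 and 12367 to 20702 in the GFP control. Fewer cells of a type and less RNA per cell cannot be told apart in such bulk samples. Neutrophil granule genes had 1 of 16 higher (Camp) and 2 lower (Lyz2 and Mpo), and of 10 MHC class II pathway genes 1 was higher (H2-Oa) and 2 lower (Ctss and H2-Eb1).

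Of 15 mast cell, basophil and eosinophil genes 1 was higher (Mitf) and 5 lower (Fcer1a, Cpa3, Mcpt8, Cma1 and Ms4a2), with a median of -0.71 (-0.44 with signals raised to background and -0.33 with log2(signal + 32)). Fcer1a, the alpha chain of the IgE receptor, had 281, 600 and 283 in NA10 and 597, 1186 and 669 in ND13(N51S), higher in the mutant in each of the 3 numbered pairs although the ranges overlap. Without ND13(N51S) replicate 2 only Mcpt8 and Fcer1a of the 5 stayed past the unadjusted thresholds. Fibroblast and matrix genes, listed because the cells had been cocultured with producer cells of fibroblast origin, were 2 higher and 4 lower of 23 (lower Acta2, Fn1, Dcn and Bgn, with a median of -0.46; 2 and 6 without ND13(N51S) replicate 2), and their summed signal was 10387 to 11352 in NA10 and 13132 to 16200 in ND13(N51S). The part of such cells in the myeloid and matrix differences was not tested.

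Immediate early genes were lower in NA10 where they passed, with 0 of 24 higher and 6 lower (Jun, Btg2, Fosb, Klf4, Egr2 and Egr1) and a median of -0.37. Jun, a subunit of the AP-1 transcription factor, had 228, 262 and 294 in NA10 and 476, 443 and 886 in ND13(N51S), a log2 fold change of -1.14 on probe set 1448694_at (adjusted p = 0.144, limma), or -1.25 without ND13(N51S) replicate 2 (adjusted p = 0.0927, limma). ND13 had 707, 542 and 542 and the GFP control 170, 134 and 199. So on this probe set both HOXD13 constructs lay above NA10 and NA10 above the vector, without overlap. The qRT-PCR of the study on unamplified RNA differed. It gave NA10 and ND13(N51S) the same c-Jun fold change over the GFP control, and only ND13 a higher one. The other Jun probe set, 1417409_at, had 145, 134 and 121 in NA10 and 92.2, 70.3 and 513 in ND13(N51S), overlapping, with a change of -0.17 (adjusted p = 0.949, limma). Without ND13(N51S) replicate 2 the list had 4 genes lower and a median of -0.21.

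**Figure D4:**
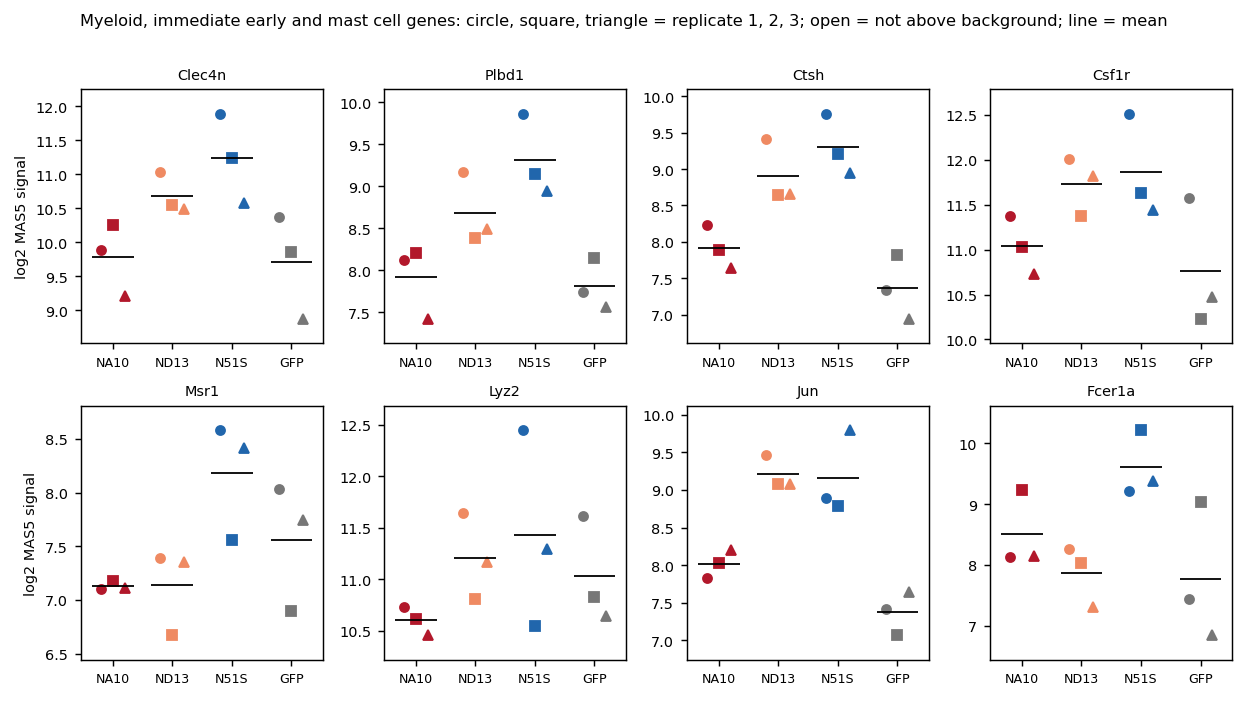
Log2 MAS5 signal (vertical axis) of 8 myeloid, immediate early and mast cell genes in NA10, ND13, ND13(N51S) and the GFP control, with symbols as for the called probe sets. ND13(N51S) lies above NA10 on all arrays for Clec4n, Plbd1, Ctsh, Csf1r, Msr1 and Jun, and overlaps it for Lyz2 and Fcer1a.

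Other genes with the smallest p among those without overlap had varied roles. Higher in NA10 were Bmpr2, a BMP receptor, with 173, 120 and 140 in NA10 and 31.9, 42.3 and 21.1 in ND13(N51S), all 3 below background, Cab39, a scaffold of the kinase LKB1, with 809, 441 and 375 in NA10 and 260, 184 and 216 in ND13(N51S), and Pde9a, a phosphodiesterase of cyclic GMP, with 122, 50.6 and 238 in NA10 and values below background in ND13(N51S). The brighter Cab39 probe set, 1418433_at, overlapped, with a change of -0.30 and 542, 761 and 1177 in NA10 and 613, 1244 and 1178 in ND13(N51S). Of these 3 genes only Bmpr2 was called, without ND13(N51S) replicate 2 (adjusted p = 0.0198, limma). Lower in NA10 were Gpaa1, a subunit of the GPI transamidase, with 124, 144 and 270 in NA10 and 1015, 898 and 1223 in ND13(N51S) on probe set 1438152_at but changes of 0.79 and 0.25 on its 2 other probe sets, and Adgrg3, an adhesion receptor of granulocytes, with 555, 698 and 851 in NA10 and 1498, 1910 and 1338 in ND13(N51S). Acaa1a, a thiolase of peroxisomal fatty acid oxidation, had 378, 292 and 292 in NA10 and 877, 672 and 1153 in ND13(N51S), and was called without replicate 2 (adjusted p = 0.0452, limma), while its second probe set had a change of -0.11. Arap2, Prrc1 and Dppa3 completed the 10 lowest p among lower genes, with log2 fold changes of -1.40, -2.10 and -1.49.

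Lists of basic cell functions had few genes past the thresholds. Of 29 DNA replication genes 1 was higher and 0 lower, of 29 mitosis genes 2 and 0, of 35 respiratory chain genes 1 and 0, and of 28 ribosomal protein and 26 ribosome biogenesis genes 0 and 0. Their medians ran from -0.06 to 0.04, and those of the mitosis, replication, respiratory and both ribosome lists changed sign under other scalings or with arrays left out. Of 30 genes of the unfolded protein and amino acid stress responses 5 were higher (Sesn2, Pdia3, Nupr1, Herpud1 and Dnajc3) and 2 lower, but without ND13(N51S) replicate 2 the counts were 4 and 1 and the median changed sign. Of 27 interferon-stimulated genes 2 were higher and 4 lower, and of 21 lymphoid genes 1 was higher and 3 lower, among them Il7r, the interleukin-7 receptor, at 92.1, 173 and 87.9 in NA10 and 703, 755 and 171 in ND13(N51S). Erythroid genes apart from the beta-globin probe set had 1 of 17 higher (Car2) and 3 lower (Ermap, Trim10 and Epor).

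**Figure D5:**
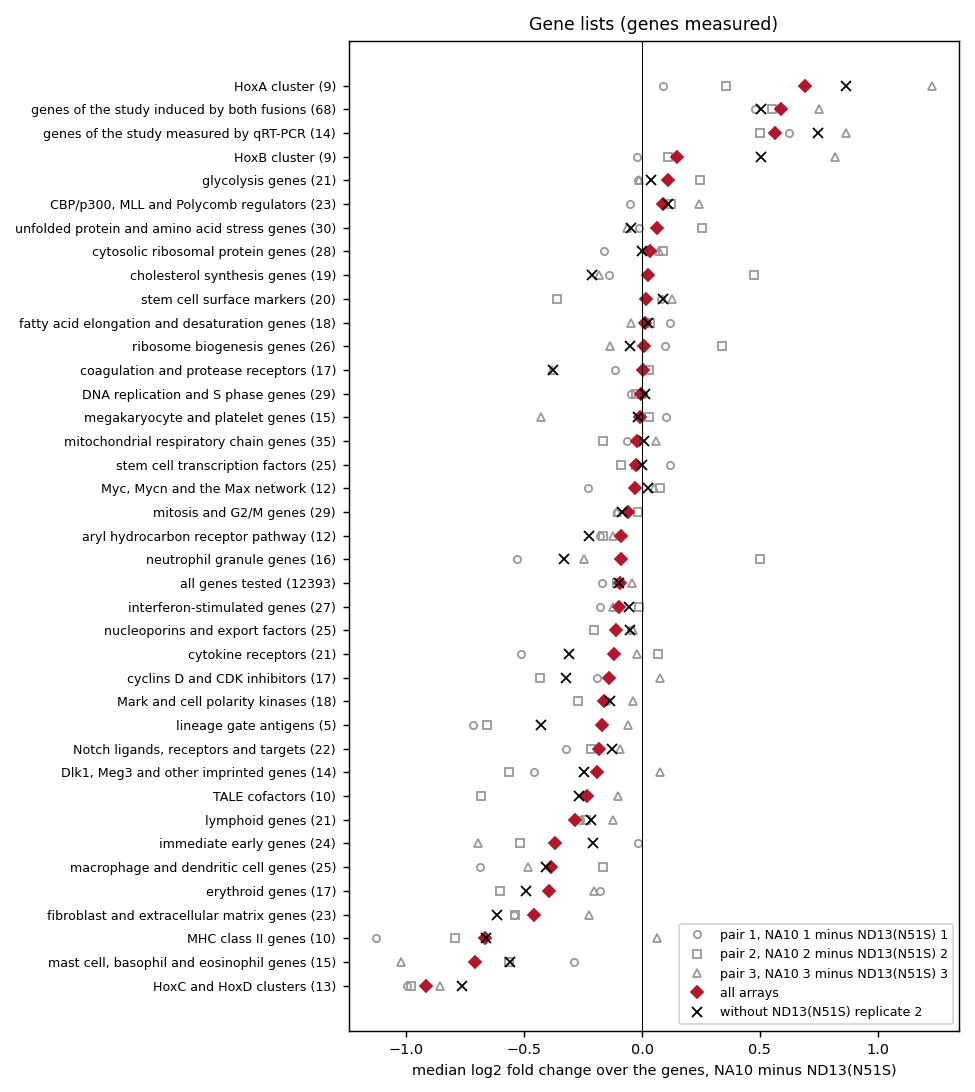
Median log2 fold change of NA10 minus ND13(N51S) over the measured genes of each of 38 lists and over all 12393 genes (horizontal axis), with the number of genes in brackets. Diamonds are all arrays, crosses are without ND13(N51S) replicate 2, and open grey symbols are single numbered pairs. The HoxA list and the lists the study chose on these samples lie highest, at 0.57 to 0.69, and the HoxC and HoxD and mast cell lists lowest, at -0.92 and -0.71. With signals raised to background these 3 medians are 0.24 for HoxA, -0.37 for HoxC and HoxD and -0.44 for mast cell genes, and the MHC class II list, at -0.66, is lower.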

How the data were processed

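The authors deposited MAS5 signal intensity values on a linear scale for 22690 probe sets, scaled by MAS5 to a common trimmed mean (2% at each end). The GC-RMA values and CEL files were not used here. After 64 control probe sets were left out, log2 of the signal of all 12 arrays was fitted with group and replicate number as a block (limma 3.58.1 in R 4.3.3, lmFit, eBayes with trend and robust, 11.8 degrees of freedom on average). Of 22626 probe sets, 20380 had 1 gene in the platform annotation, 691 several and 1555 none, and 20351 were matched by gene number in RefSeq. List counts used the probe set with the highest mean of a gene. Of 807 listed genes 721 had a probe set. "At least" folds put signals below background at the background.

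The replicate numbers were taken as pairs, since the study describes 3 experiments. Among probe sets above the median mean the deviations of same-numbered NA10 and ND13(N51S) arrays correlated at 0.193 to 0.490, against -0.355 to 0.0746 for other numbers. Over all probe sets these correlations were weaker, 0.0598 to 0.149 against -0.0962 to 0.0121. Deviations from a group mean cancel within the group, so the negative values for other numbers are no separate evidence of pairing. Whether replicates came from separate animals is not stated, and p-values measure the spread between these samples. The comparison, gene lists, rule for named genes and tests were chosen with earlier results of these data known. Named genes were those of called probe sets (up to 20 without ND13(N51S) replicate 2), the 10 with the smallest p in each direction, without overlap, 1.5-fold and above background, up to 4 past the unadjusted thresholds per list, the HoxA and TALE genes and genes the study discussed. Alternatives are listed under the dependence on processing. The fit was tested on simulated data with independent noise of the same spread on every array for a given probe set. That setting has no array like ND13(N51S) replicate 2, so it does not test how that array affects the calls. The number of arrays limits the precision. Plots used Python 3.11.15 and matplotlib 3.10.9.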

Additional observations from a re-analysis of the deposited data

How the results depend on the processing

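With all arrays 9 probe sets were called higher in NA10 and 1 lower, and 870 and 1257 passed the unadjusted thresholds. Calls were 1 higher and 1 lower with no replicate block, 1 and 0 in a fit of the 6 arrays, and 0 and 1 with plain eBayes. With 1 probe set per gene they were 0 and 0 (375 and 752 unadjusted). An unpaired t-test with pooled variance on log2 MAS5 signals gave 0 and 0 after Benjamini-Hochberg adjustment (330 and 907 unadjusted). The study tested GC-RMA values normalized to the GFP control, and its results name a Welch test. The t-test here was not a rerun of that. Calls were 7 and 0 with a filter on dim probe sets (546 and 433 unadjusted, out of 11313 tested), 12 and 5 with log2(signal + 32), 17 and 2 with array weights, and 38 and 16 without ND13(N51S) replicate 2 and GFP control replicate 1. Signals raised to background gave 59 and 30, with the median over all probe sets at -0.19 in place of -0.08. Quantile normalization and median centring each gave 10 and 1. The cause of these differences was not tested. Leaving out 1 array gave 0 to 106 higher and 0 to 15 lower, and 598 to 1462 higher and 994 to 1350 lower unadjusted. The lowest counts came without NA10 replicate 3, and the highest without ND13(N51S) replicate 3 (106 and 15) or 2 (33 and 10). Without NA10 replicate 1 there were 1 and 0 calls, without NA10 replicate 2 there were 2 and 2, without ND13(N51S) replicate 1 there were 4 and 1, and without ND13 replicates 1, 2 and 3 there were 5, 3 and 2 higher. Each of the 10 called probe sets lost its call under at least 3 of these settings, and no called value changed sign under any setting run. Over the named probe sets and settings 3189 values kept their side of the threshold, 96 lost the call and 130 gained one. Of the list medians 834 moved by less than the spread between the numbered pairs and 63 by more. With 3 arrays a group and signals near background for dim genes, a change that missed the threshold is not shown to be absent.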
